A study of Danio rerio with 20 samples.

Results

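The genes described here encode the cytosolic chaperone Hsp90, the myosin chaperones that work with it and the activators of its ATPase in zebrafish. They are hsp90aa1.1, hsp90aa1.2 and hsp90ab1 (Hsp90), unc45b and unc45a (myosin chaperones), smyd1b and smyd1a (muscle methyltransferases) and ahsa1a and ahsa1b (Aha1-type activators). They were chosen by symbol with earlier results of these data known, so their counts and medians beside all genes are description only. All 9 were among the 14781 genes of the deposited matrix. Of these, 8 passed the filter on low values and were among the 10914 genes tested. The ninth, smyd1a, was too low to test and is given by its levels.

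Hsp90 binds partly folded client proteins and releases them through a cycle of ATP binding and hydrolysis. Co-chaperones set the pace of that cycle, and Aha1 proteins speed up the hydrolysis step. Myosin heavy chain is a client in muscle: its motor domain folds with the help of Hsp90 and of a UCS-domain protein, Unc45b in striated muscle and Unc45a more widely. In zebrafish embryos, hsp90aa1.1, unc45b and smyd1b are needed for thick filaments to assemble in skeletal muscle. Hsp90ab1 is the more evenly expressed cytosolic Hsp90.

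RNA came from cardiomyocyte preparations of adult zebrafish aged 4 to 6 months, either wild type or kit mutant with the alleles kita(w34b2) and kitb(sa15356), which alter both zebrafish homologs of the receptor tyrosine kinase KIT. Hearts were untouched, or were taken 2, 5, 7 or 14 days post injury (dpi) after about 20% of the ventricle had been cut away at the apex. Each of the 10 groups had 2 libraries, and each library pooled cells of 8 ventricles. The series was made to assess a proliferation defect of mutant cardiomyocytes. No sham-operated group is among the libraries analysed here, and the mutants carried their alleles in all cells of the body.

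Assigned reads ranged from 14.6 to 31.7 M per library. The mRNA of kita was at 0.385 to 1.34 scaled CPM in the 10 wild-type libraries and at 0.373 to 1.602 in the 10 mutant ones, and kitb was at 0 to 0.322 and 0 to 0.277, so transcript levels of the targeted genes did not separate the genotypes. All 11 cardiomyocyte markers found in the matrix were detected in each group, with a summed level of 31833 to 75821 scaled CPM. Fibroblast and epicardial markers rose from 5322 to 5744 in untouched libraries to 13087 to 26036 after injury, so the preparations also held RNA of other cells. Of the skeletal muscle list, ckma (2121 to 8057), acta1b (2307 to 7358), acta1a (207 to 1139) and casq1b (44.5 to 169) made up most of a sum of 4697 to 13855, while the fast fibre markers mylpfa, myhz2, tnnt3a, pvalb1, pvalb2 and pvalb4 were at 0 to 5.43. In bulk RNA, fewer cells of a type and less RNA per cell cannot be told apart. In 3 mutant groups (untouched, 2 dpi and 7 dpi) both libraries were nearly the same, with a mean chi-square per gene of 2.57, 3.84 and 1.98 against 14.6 to 48.9 in the other 7 groups. Nothing in the labels says whether libraries of a group came from separate preparations, so p-values measure the spread between these libraries, which may be technical. Calls of single genes in the text that were lost once those 3 pairs were averaged and counted as 1 sample each are given as such. The mutant pair at 2 dpi alone carries a lane 7 label, so within mutants that day and the lane cannot be told apart. Mutant libraries in lane 8 reuse indices of wild-type ones, so genotype and sequencing run cannot be told apart.

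Levels below are scaled CPM (CPM, reads scaled to a fixed total, divided by a library factor). Differences are log2(scaled CPM + 1) ± SE from limma across all 10914 genes, two-sided, with Benjamini-Hochberg adjusted p and a threshold of 0.05. Adding 1 makes differences of low genes smaller than their true size. Gene lengths were not used, so levels are compared between groups and not between genes.

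**Figure D1:**
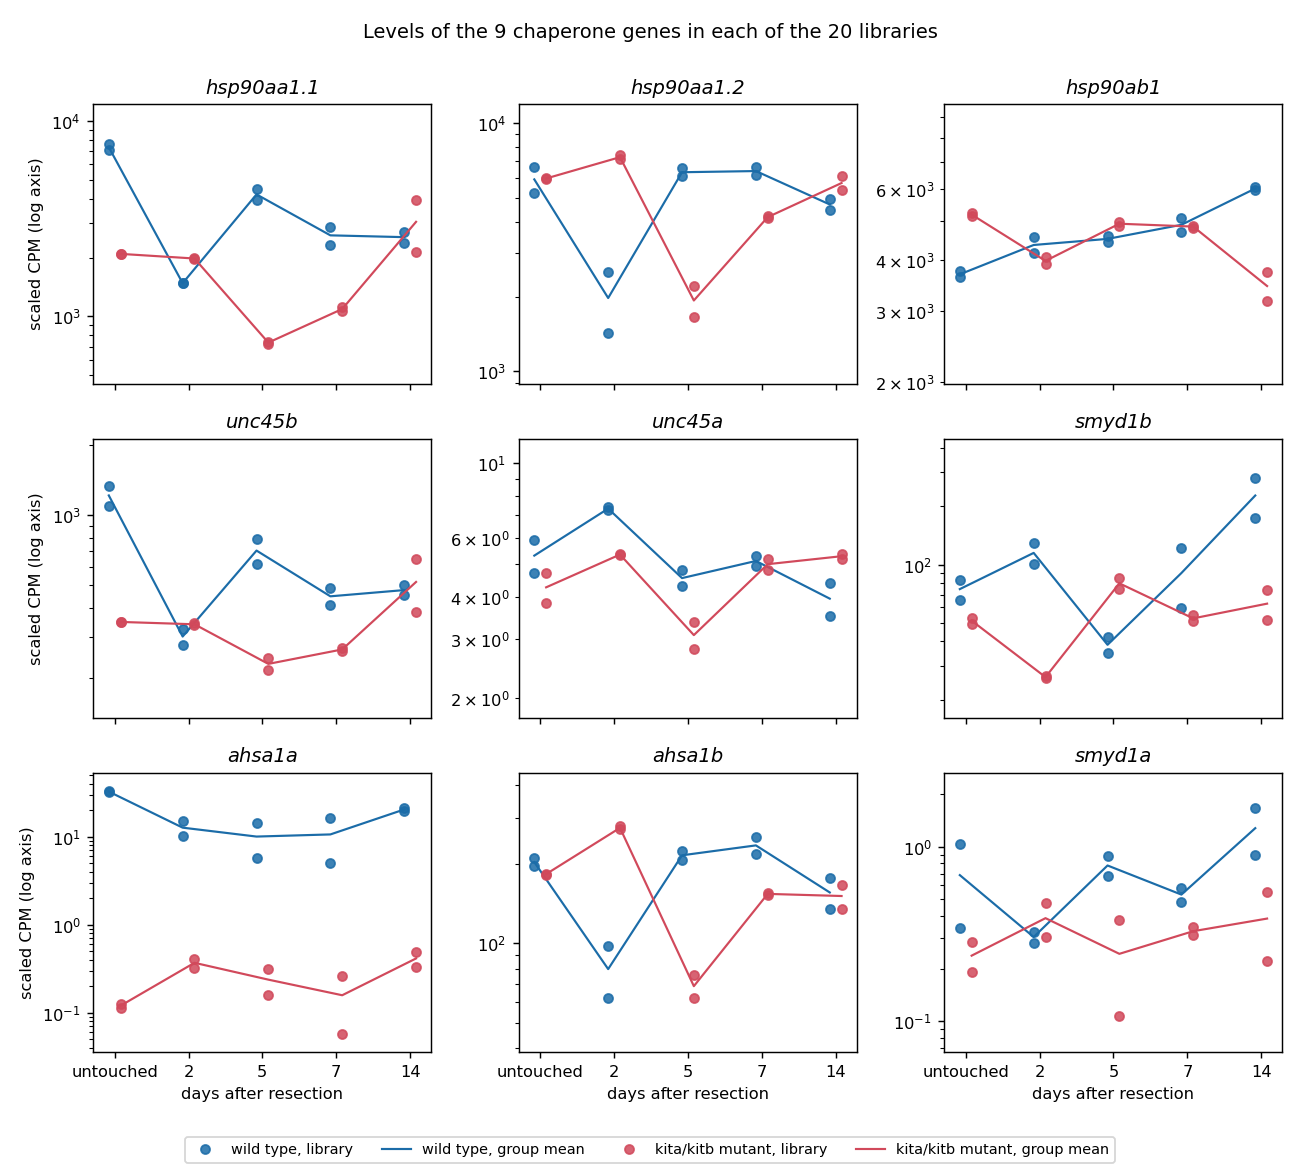
Scaled CPM (log axis) of each of the 9 genes against days after resection, with 1 point per library and lines through group means, wild type in blue and kita/kitb mutants in red. In wild type hsp90aa1.1, hsp90aa1.2, unc45b and ahsa1b have their lowest mean at 2 dpi, in mutants the same genes have it at 5 dpi, and ahsa1a stays below 0.5 scaled CPM in all 10 mutant libraries.

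Among the Hsp90 genes, hsp90aa1.1 had the widest range, from 725 to 7583 scaled CPM over the 20 libraries. The wild-type libraries held 7074 and 7583 in untouched hearts, 1479 and 1477 at 2 dpi, 3943 and 4466 at 5 dpi, 2313 and 2880 at 7 dpi, and 2713 and 2371 at 14 dpi. Both untouched libraries lay above every injured one, and the level came back only in part after the low point at 2 dpi. The fall from untouched to 2 dpi was 4.96-fold (log2 difference -2.31 ± 0.20, adjusted p = 1.59e-07, limma). The level remained lower at 7 dpi (-1.50 ± 0.20, adjusted p = 2.35e-05) and at 14 dpi (-1.53 ± 0.20, adjusted p = 4e-05). At 5 dpi the difference was -0.80 ± 0.20 (adjusted p = 0.00562, limma), and it was lost without wild-type 5 dpi library 1 (adjusted p = 0.0556).

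The mutant libraries held 2079 and 2096 in untouched hearts, 1989 and 1964 at 2 dpi, 744 and 725 at 5 dpi, 1111 and 1070 at 7 dpi, and 3953 and 2137 at 14 dpi. In untouched mutants hsp90aa1.1 was thus already 3.51-fold below wild type (-1.81 ± 0.20, adjusted p = 3.53e-06, limma), its level at 2 dpi was close to the untouched one (a rise with quantile normalization, 0.48, adjusted p = 0.0102), and the lowest level came at 5 dpi. The fall to 5 dpi was 2.84-fold (-1.51 ± 0.20, adjusted p = 1.24e-05). The libraries at 14 dpi were far apart. The difference at 7 dpi (-0.94 ± 0.20, adjusted p = 0.00398) did not pass with the near-identical pairs averaged (adjusted p = 0.223). Against wild type of the same day, mutants were 5.73-fold lower at 5 dpi (-2.51 ± 0.20, adjusted p = 5.91e-07) and 2.38-fold lower at 7 dpi (-1.24 ± 0.20, adjusted p = 0.000326). At 2 and 14 dpi the difference did not pass the threshold (adjusted p = 0.0804 and 0.479), though with quantile normalization mutants were higher on both days (0.82, adjusted p = 0.000139, and 0.69, adjusted p = 0.0018).

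The tandem neighbour hsp90aa1.2, the other Hsp90-alpha gene, had 1 deep dip in each genotype. Wild-type libraries held 6639 and 5221 in untouched hearts, 2520 and 1428 at 2 dpi, 6565 and 6108 at 5 dpi, 6161 and 6652 at 7 dpi, and 4476 and 4925 at 14 dpi. Mutant libraries held 5990 and 5971 in untouched hearts, 7148 and 7426 at 2 dpi, 1650 and 2208 at 5 dpi, 4209 and 4149 at 7 dpi, and 6100 and 5367 at 14 dpi. The dip fell at 2 dpi in wild type and at 5 dpi in mutants, and the libraries of those groups lay below all others. It was 3.004-fold in wild type (-1.63 ± 0.21, adjusted p = 1.1e-05, limma) and 3.10-fold in mutants (-1.65 ± 0.21, adjusted p = 1.02e-05). Untouched hearts held 5930 ± 1003 (wild type) and 5981 ± 14.1 (mutants; SD, n = 2). Mutants were 3.69-fold above wild type at 2 dpi (1.94 ± 0.21, adjusted p = 1.56e-06) and 3.28-fold below at 5 dpi (-1.73 ± 0.21, adjusted p = 2.2e-05). The smaller difference at 7 dpi (-0.62 ± 0.21, adjusted p = 0.0413) passed in neither of the fits with the near-identical pairs averaged (adjusted p = 0.24) or without a filter on low values, and was also lost without any library of the wild-type 5 dpi or 7 dpi or the mutant untouched, 2 dpi or 7 dpi pairs (highest adjusted p 0.157).

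Reads of such close paralogs can be split or shared by the counting, so both genes were also summed and the whole table refitted. The sum fell by 1.96 ± 0.18 on the log2 scale at 2 dpi in wild type (adjusted p = 2.73e-07, limma) and by 1.61 ± 0.18 at 5 dpi in mutants (adjusted p = 2.15e-06). Mutants were lower by the sum in untouched hearts (-0.72 ± 0.18, adjusted p = 0.00425) and at 5 dpi (-1.99 ± 0.18, adjusted p = 1.48e-06), and higher at 2 dpi (1.44 ± 0.18, adjusted p = 4.85e-06). The dip and its day thus do not depend on how reads were split between the pair. In untouched hearts the genotype difference was smaller by the sum than for hsp90aa1.1 alone, while hsp90aa1.2 held like levels in both genotypes. Adding a gene with like levels shrinks a difference. The sum therefore cannot tell whether the size of the hsp90aa1.1 difference depends on that split.

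The third gene, hsp90ab1, varied least of the 3 Hsp90 genes, from 3167 to 6054 over all libraries, and had no dip as deep as theirs. In mutants its mean went from 5177 in untouched hearts to 3978 at 2 dpi and 4915 at 5 dpi, but both steps depended on the scaling. Wild-type libraries held 3621 and 3751 in untouched hearts, 4164 and 4546 at 2 dpi, 4440 and 4577 at 5 dpi, 5085 and 4683 at 7 dpi, and 5955 and 6054 at 14 dpi. Mutant libraries held 5232 and 5121 in untouched hearts, 3900 and 4057 at 2 dpi, 4973 and 4856 at 5 dpi, 4865 and 4806 at 7 dpi, and 3729 and 3167 at 14 dpi. Untouched libraries were the lowest group mean of wild type and the highest of mutants. In wild type the rises at 2 and 5 dpi did not pass (adjusted p = 0.12 and 0.0852, limma). With the CPM as deposited both passed (0.55, adjusted p = 3.03e-05, and 0.49, adjusted p = 0.000303). They also passed with quantile normalization (0.64, adjusted p = 0.000193, and 0.45, adjusted p = 0.00625). At 14 dpi hsp90ab1 had risen 1.63-fold in wild type (0.70 ± 0.12, adjusted p = 0.000684, limma) and had fallen in mutants (-0.59 ± 0.12, adjusted p = 0.00145). Mutants were 1.74-fold below wild type on that day (-0.80 ± 0.12, adjusted p = 0.000197). In untouched hearts they were 1.40-fold above it (0.49 ± 0.12, adjusted p = 0.00519), a difference that missed the threshold with the near-identical pairs averaged (adjusted p = 0.0921). Smaller changes rested on single libraries or on the scaling: a rise at 7 dpi in wild type (0.41 ± 0.12, adjusted p = 0.0184) was lost without either untouched library or 7 dpi library 1 (adjusted p up to 0.126) and with averaged pairs (adjusted p = 0.0756), and a fall at 2 dpi in mutants (-0.38 ± 0.12, adjusted p = 0.0174) was lost with the CPM as deposited (-0.02, adjusted p = 0.809) and with averaged pairs (adjusted p = 0.233).

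The muscle myosin chaperone unc45b followed hsp90aa1.1 rather than hsp90aa1.2. Wild-type libraries held 1097 and 1326 scaled CPM in untouched hearts, 278 and 325 at 2 dpi, 619 and 788 at 5 dpi, 410 and 486 at 7 dpi, and 501 and 452 at 14 dpi. Mutant libraries held 349 and 347 in untouched hearts, 337 and 343 at 2 dpi, 244 and 216 at 5 dpi, 262 and 268 at 7 dpi, and 648 and 385 at 14 dpi. Both untouched wild-type libraries stood above the other 18. In wild type unc45b fell 4.02-fold by 2 dpi (-2.00 ± 0.18, adjusted p = 3.37e-07, limma) and was still 2.70-fold lower at 7 dpi (-1.43 ± 0.18, adjusted p = 1.93e-05) and 2.54-fold lower at 14 dpi (-1.34 ± 0.18, adjusted p = 7.26e-05). The difference at 5 dpi (-0.79 ± 0.18, adjusted p = 0.00404) was lost without wild-type untouched library 2 or 5 dpi library 1 (adjusted p up to 0.0642). Mutants were 3.48-fold below wild type in untouched hearts (-1.79 ± 0.18, adjusted p = 1.97e-06) and 3.06-fold below at 5 dpi (-1.60 ± 0.18, adjusted p = 1.48e-05). At 7 dpi the difference was -0.75 ± 0.18 (adjusted p = 0.00697), lost in the fit with averaged pairs (adjusted p = 0.0979) and without wild-type 7 dpi library 2 or mutant 7 dpi library 1 (adjusted p up to 0.0631).

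Among the changes tested within mutants, the largest of unc45b was a rise from 7 to 14 dpi (0.91 ± 0.18, adjusted p = 0.00248, limma). It was 0.54 to 1.28 without single libraries, and the call was lost with the pairs averaged (adjusted p = 0.065). The changes of unc45b from untouched mutants were small and rested on single libraries. It was lower at 5 dpi (-0.60 ± 0.18, adjusted p = 0.0128, limma), which missed the threshold with the pairs averaged (adjusted p = 0.0966) and without either untouched library or 5 dpi library 2 (adjusted p up to 0.084). It was higher at 14 dpi (0.52 ± 0.18, adjusted p = 0.0341), but the difference was 0.14 without the higher 14 dpi library, library 1, and the call was also lost without either untouched library (adjusted p up to 0.511) and with the pairs averaged (adjusted p = 0.184).

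The general myosin chaperone unc45a was a low transcript with 44 to 195 reads per library. It ranged from 2.78 to 7.41 scaled CPM, with the wild-type 2 dpi libraries highest at 7.25 and 7.41 and the mutant 5 dpi libraries lowest at 2.78 and 3.36. Those groups did not overlap with any other. From 2 to 5 dpi unc45a fell in wild type (-0.59 ± 0.15, adjusted p = 0.0041, limma) and in mutants (-0.64 ± 0.15, adjusted p = 0.00124), and these calls were kept under every alternative. Its other calls were each lost under at least 1 alternative. They were a rise at 2 dpi in wild type (0.41 ± 0.15, adjusted p = 0.0295), a fall at 5 dpi in mutants (-0.37 ± 0.15, adjusted p = 0.0466), lower levels of mutants at 2 dpi (-0.39 ± 0.15, adjusted p = 0.0317) and at 5 dpi (-0.45 ± 0.15, adjusted p = 0.0251), a recovery from 5 to 7 dpi in mutants (0.56 ± 0.15, adjusted p = 0.00617), and the difference of the responses at 14 dpi (0.61 ± 0.21, adjusted p = 0.034). With the near-identical pairs averaged all of these 6 missed the threshold (adjusted p from 0.0536 to 0.167), and each was also lost without at least 1 of the libraries compared (adjusted p up to 0.29).

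The methyltransferase gene smyd1b, whose protein acts with Hsp90 and Unc45b on myosin, changed on other days. Wild-type libraries held 83.7 and 65.6 in untouched hearts, 101 and 129 at 2 dpi, 34.7 and 42.1 at 5 dpi, 121 and 59.6 at 7 dpi, and 281 and 175 at 14 dpi. Mutant libraries held 49.5 and 53.0 in untouched hearts, 26.5 and 25.7 at 2 dpi, 84.98 and 75.0 at 5 dpi, 50.8 and 54.5 at 7 dpi, and 74.1 and 51.5 at 14 dpi. The wild-type low at 5 dpi coincided with the mutant high, and the wild-type pair at 14 dpi lay above all other libraries. Wild-type smyd1b rose 3.05-fold over untouched by 14 dpi (1.57 ± 0.26, adjusted p = 0.000467, limma). Mutants were 4.40-fold below wild type at 2 dpi (-2.09 ± 0.26, adjusted p = 6.83e-06) and 3.63-fold below at 14 dpi (-1.83 ± 0.26, adjusted p = 0.000115). They were 2.08-fold above it at 5 dpi (1.04 ± 0.26, adjusted p = 0.0057), which was lost without wild-type or mutant 5 dpi library 1 (adjusted p up to 0.0586). Its falls against untouched, at 5 dpi in wild type (-0.94 ± 0.26, adjusted p = 0.0129) and at 2 dpi in mutants (-0.94 ± 0.26, adjusted p = 0.00672), were lost without wild-type untouched or 5 dpi library 1 (adjusted p up to 0.103) and with the pairs averaged (adjusted p = 0.116), respectively. The paralog smyd1a had 2 to 24 reads per library, 0.282 to 1.65 scaled CPM in wild type and 0.107 to 0.552 in mutants. These ranges over all days overlapped. Within a day the genotypes overlapped only at 2 dpi (0.282 to 0.325 and 0.303 to 0.475). In untouched hearts and at 5, 7 and 14 dpi both wild-type libraries lay above both mutant ones, at these few reads and without a test.

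Of the Aha1 genes, ahsa1a separated the genotypes more than any other gene described here. Wild-type libraries held 32.0 and 33.4 scaled CPM in untouched hearts, 10.1 and 15.3 at 2 dpi, 5.77 and 14.4 at 5 dpi, 16.2 and 5.07 at 7 dpi, and 19.5 and 21.5 at 14 dpi. All 10 mutant libraries lay between 0.0574 and 0.497, which is 1 to 15 reads each against 79 to 649 in wild type. The genotypes did not overlap at any time, and the gap held at each of the 5 times. Mutants were lower by 4.91 ± 0.38 on the log2 scale in untouched hearts (log2 difference -4.91, adjusted p = 9.94e-08, limma). The differences were -3.30 at 2 dpi, -3.05 at 5 dpi, -3.15 at 7 dpi and -3.92 at 14 dpi, each ± 0.38, with adjusted p from 2.49e-06 to 3.53e-05. Because adding 1 shrinks these values, the ratio of the depth-scaled reads is also given with its exact 95% interval, which covers counting error only. Wild type exceeded mutants 273-fold in untouched hearts (106.5 to 1005) and 32.05-fold at 2 dpi (21.6 to 49.6). The ratio was 49.5 at 5 dpi (24.9 to 115), 77.8 at 7 dpi (35.5 to 213) and 43.9 at 14 dpi (26.4 to 78.8).

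Ordered from the most negative of all 10914 differences between mutant and wild type, ahsa1a ranked 1 in untouched hearts, 2 at 2 dpi, 3 at 5 dpi, 2 at 7 dpi and 2 at 14 dpi. No mutant library reached the CPM of 1 required by the filter. The gene was thus tested only through its wild-type levels, and its ranks describe a gene admitted where it is high. In the RefSeq gene table of assembly GRCz12tu, ahsa1a lies on the chromosome of kita, 1 of the mutated genes, and hsp90aa1.1, hsp90aa1.2 and hsp90ab1 lie on that chromosome too. From kita to ahsa1a that table lists 100 protein-coding genes, of which 67 were tested. Only paics, a purine synthesis enzyme gene, and ahsa1a differed between genotypes in the same direction at all 5 times, which is 2.99% of those tested. That share holds ahsa1a by construction, because this gene sets the end of the stretch. It was 1.67% in the same number of genes before kita and 0.00% in as many after ahsa1a. On the whole chromosome it was 1.73%, and among all tested genes 1.35%. For paics the log2 differences were from -1.07 to -0.52. Whether the position of ahsa1a has a part in its difference was not tested. Within wild type ahsa1a fell 3.07-fold by 7 dpi (-1.72 ± 0.38, adjusted p = 0.002, limma), and the difference was -2.47 without wild-type 7 dpi library 1 and -0.97 without library 2. It was also lower at 2 dpi (-1.32 ± 0.38, adjusted p = 0.00785) and 5 dpi (-1.72 ± 0.38, adjusted p = 0.00256), calls lost without library 1 of the same day (adjusted p up to 0.0674 and 0.0589).

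The paralog ahsa1b kept its level in untouched mutants and dipped on the same days as hsp90aa1.2. Wild-type libraries held 211 and 197 in untouched hearts, 97.9 and 61.8 at 2 dpi, 224 and 208 at 5 dpi, 219 and 253 at 7 dpi, and 135 and 178 at 14 dpi. Mutant libraries held 184 and 183 in untouched hearts, 272 and 278 at 2 dpi, 62.0 and 75.5 at 5 dpi, 156 and 153 at 7 dpi, and 167 and 135 at 14 dpi. The wild-type 2 dpi and mutant 5 dpi libraries lay below all others and overlapped with each other. The fall was 2.55-fold at 2 dpi in wild type (-1.38 ± 0.17, adjusted p = 8.43e-06, limma) and 2.67-fold at 5 dpi in mutants (-1.41 ± 0.17, adjusted p = 6.84e-06). Mutants were 3.44-fold above wild type at 2 dpi (1.81 ± 0.17, adjusted p = 4.77e-07) and 3.15-fold below at 5 dpi (-1.64 ± 0.17, adjusted p = 6.43e-06). A rise at 2 dpi in mutants (0.58 ± 0.17, adjusted p = 0.0102) was lost in the fit with averaged pairs (adjusted p = 0.148) and without mutant 2 dpi library 2 (adjusted p = 0.0541). A lower level of mutants at 7 dpi (-0.61 ± 0.17, adjusted p = 0.0171) was lost in the fit with averaged pairs (adjusted p = 0.15) and without wild-type 7 dpi library 2 or either mutant 7 dpi library (adjusted p up to 0.114).

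**Figure D2:**
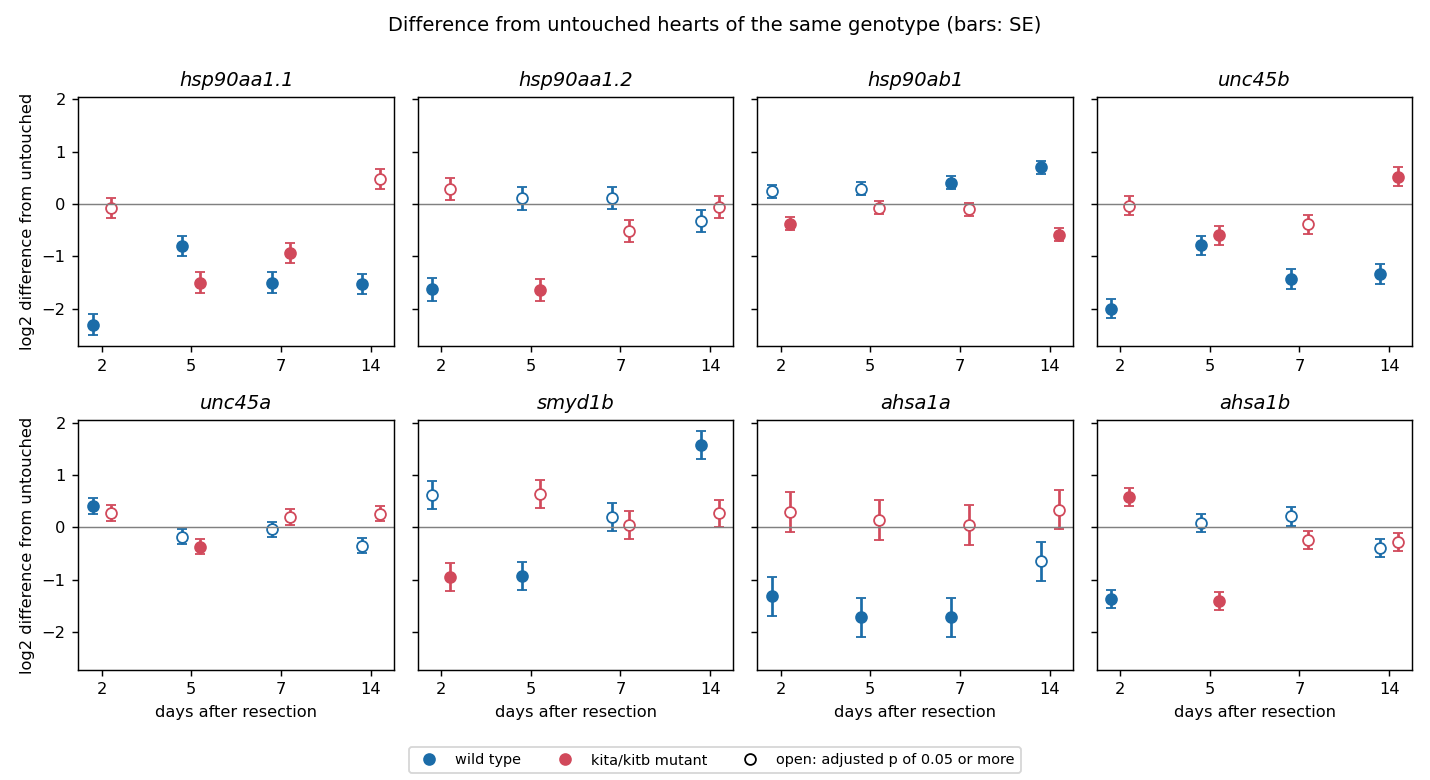
Log2 difference from untouched hearts of the same genotype (y axis, bars SE) at 2, 5, 7 and 14 days after resection for the 8 tested genes, wild type in blue and mutants in red, with filled points at an adjusted p under 0.05. The lowest wild-type points of hsp90aa1.1, hsp90aa1.2, unc45b and ahsa1b are at 2 days (-2.31, -1.63, -2.00 and -1.38) and the lowest mutant points are at 5 days (-1.51, -1.65, -0.60 and -1.41).

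Counted over the time courses against untouched hearts, wild type at 2 dpi had 1 of the 8 genes higher and 5 lower, where 51.6% of all tested genes were called. At 5 dpi 4 were lower and 0 higher (32.8% of all genes), but 0 were called without wild-type 5 dpi library 1. At 7 dpi 1 was higher and 3 were lower (34.8%), and at 14 dpi 2 were higher and 2 lower (24.9%). At 2 dpi the 6 of 8 lie little above that share, and the members' median was -1.35 beside 0.00 for all genes. The 8 genes include ahsa1a, which had only 1 to 15 reads in each mutant library. In mutants 1 was higher and 2 lower at 2 dpi (52.4% of all genes), 5 were lower at 5 dpi (51.3%), 1 was lower at 7 dpi (14.6%), and 1 was higher and 1 lower at 14 dpi (39.4%). With the near-identical pairs averaged these mutant counts were 0, 3, 0 and 1, where 29.2%, 33.4%, 2.68% and 19.8% of all genes were called. Without mutant 2 dpi library 2 the count at 2 dpi was 1, and without mutant untouched library 1 the count at 5 dpi was 3. The count at 7 dpi was 2 without either wild-type 2 dpi or either mutant 14 dpi library. At 14 dpi it was 1 without either mutant untouched library or 14 dpi library 1.

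The levels of heart muscle markers matched those of the chaperone genes on some days and not on others. The summed cardiomyocyte markers were 70266 to 75821 scaled CPM in wild-type untouched libraries and 35661 to 51336 at 2 dpi, when hsp90aa1.1, hsp90aa1.2, unc45b and ahsa1b were lowest. At 7 dpi the wild-type sum was as low, 43211 to 44996, while hsp90aa1.2 and ahsa1b stood near their untouched levels. At 14 dpi it was 60026 to 70067, while hsp90aa1.1 and unc45b were still 2.88-fold and 2.54-fold below untouched hearts. In mutants the sum was 71110 to 72387 in untouched hearts, 31833 to 32292 at 2 dpi and 67605 to 72713 at 5 dpi. The mutant dip of hsp90aa1.1, hsp90aa1.2 and ahsa1b at 5 dpi stood beside a cardiomyocyte sum like that of untouched mutants. The ventricular myosin gene vmhcl, not among the summed markers, did fall at 5 dpi in mutants. It went from 31550 ± 746 scaled CPM in untouched mutants to 15028 ± 3508 (SD, n = 2). The low sum of mutants at 2 dpi stood beside levels of hsp90aa1.1 and unc45b close to untouched ones. In untouched hearts the sum overlapped between genotypes, where hsp90aa1.1 and unc45b differed 3.51-fold and 3.48-fold. Other markers differed between untouched mutants and wild type as well. Summed erythrocyte markers were at 2198 to 2248 against 7077 to 7360 (3 of 3 lower), and neutrophil markers at 720.5 to 721.6 against 53.7 to 56.8 (5 of 5 higher). Of 13 fibroblast and epicardial markers 9 were lower and 2 higher, with sums of 5322 to 5343 against 5506 to 5744. In this comparison 40.1% of all tested genes were called. The part of these markers in the chaperone gene differences was not tested.

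**Figure D3:**
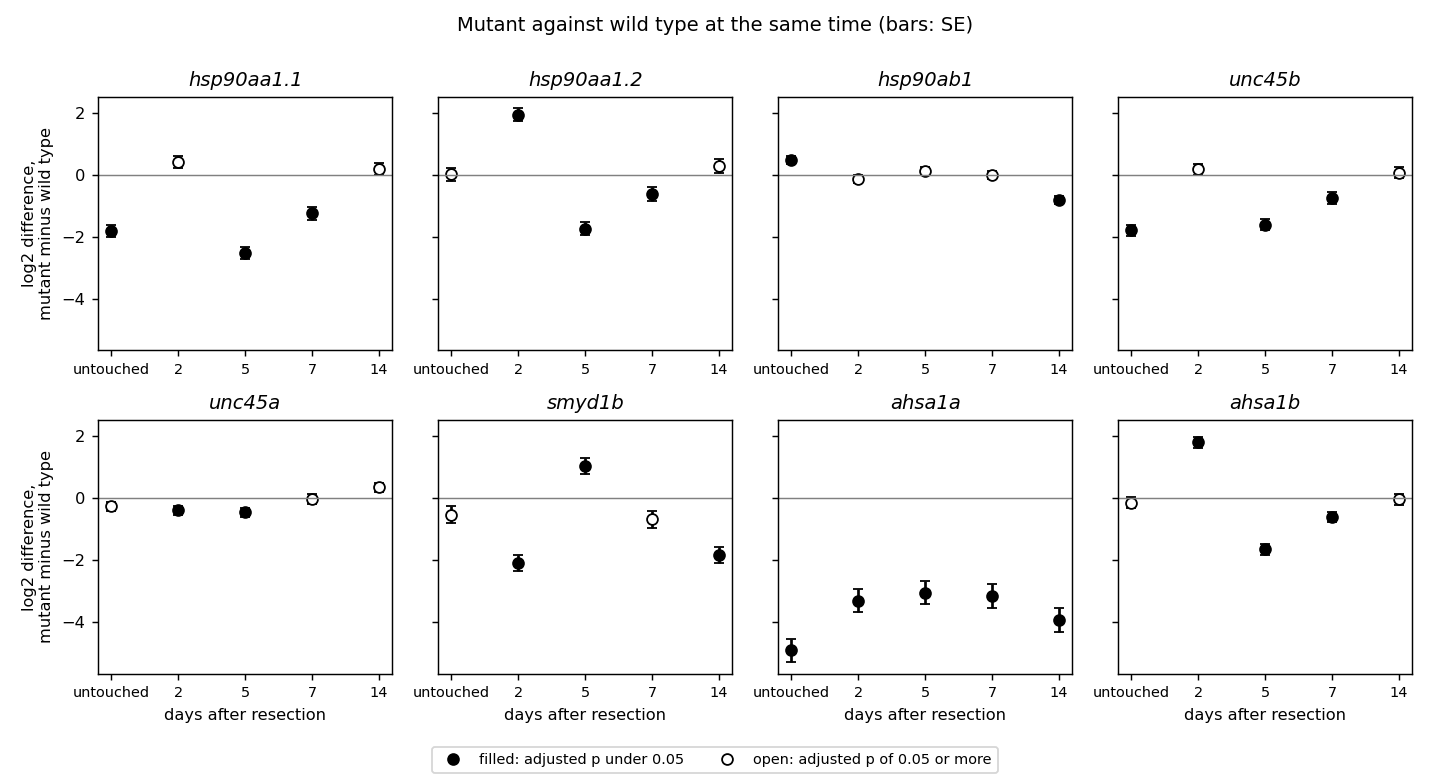
Log2 difference of mutant minus wild type (y axis, bars SE) in untouched hearts and at 2, 5, 7 and 14 days after resection for the 8 tested genes, filled where the adjusted p is under 0.05. ahsa1a lies between -4.91 and -3.05 at every time, and hsp90aa1.2 and ahsa1b lie above 0 at 2 days (1.94 and 1.81) and below it at 5 days (-1.73 and -1.64).

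In the comparison of mutants with wild type of the same day, 1 of the 8 genes was higher and 3 were lower in untouched hearts, where 40.1% of all tested genes were called. At 2 dpi 2 were higher and 3 lower (57.7% of all genes). At 5 dpi 1 was higher and 6 were lower (38.6%). At 7 dpi 5 were lower (27.2%), and at 14 dpi 3 were lower (31.0%). With the near-identical pairs averaged 3 were lower in untouched hearts (21.2% of all genes), and 2 were higher and 2 lower at 2 dpi (41.6%). In that fit 1 was higher and 5 were lower at 5 dpi (30.2%), 2 were lower at 7 dpi (7.75%) and 3 at 14 dpi (22.9%). The count at 7 dpi was 3 without wild-type 7 dpi library 2 or mutant 7 dpi library 2 and 2 without mutant 7 dpi library 1. The count at 14 dpi was 5 without mutant 14 dpi library 2. The members' median at 5 dpi was -1.62 beside -0.01 for all genes.

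The difference between the responses of the genotypes was tested directly as the mutant change from untouched less the wild-type change. These comparisons share the untouched libraries with those above, so they also hold the untouched genotype difference with its sign reversed. For unc45b, mutants against wild type gave -1.79 in untouched hearts, 0.18 at 2 dpi and 0.07 at 14 dpi. For hsp90aa1.1 the values were -1.81 in untouched hearts and 0.20 at 14 dpi. At 2 dpi 5 genes had a positive and 2 a negative difference, where 40.9% of all tested genes were called. The positive ones were hsp90aa1.1 (2.23 ± 0.28, adjusted p = 2.11e-05, limma), hsp90aa1.2 (1.92 ± 0.30, adjusted p = 0.000129), unc45b (1.97 ± 0.26, adjusted p = 3.36e-05), ahsa1b (1.96 ± 0.25, adjusted p = 2.14e-05) and ahsa1a, whose call was lost with averaged pairs (adjusted p = 0.137). For ahsa1a the difference is bounded by mutant levels near 0, so that its positive values repeat the wild-type fall. At 5 dpi 2 were positive and 2 negative (34.9% of all genes), with hsp90aa1.2 at -1.75 ± 0.30 (adjusted p = 0.000461) and ahsa1b at -1.50 ± 0.25 (adjusted p = 0.00034). At 7 dpi 2 were positive (18.8%). At 14 dpi 3 were positive and 2 negative (33.2%), with hsp90aa1.1 at 2.01 ± 0.28 (adjusted p = 5.98e-05), unc45b at 1.86 ± 0.26 (adjusted p = 6.37e-05) and hsp90ab1 at -1.29 ± 0.18 (adjusted p = 5.06e-05). With the near-identical pairs averaged the counts at 2, 5, 7 and 14 dpi were 4, 3, 0 and 3, where 19.1%, 17%, 3.84% and 19.8% of all genes were called. Without wild-type untouched library 2, wild-type 14 dpi library 1 or mutant 14 dpi library 2 the count at 14 dpi was 3. The count at 7 dpi lay between 0, without wild-type untouched library 2, and 4, without either wild-type 2 dpi or mutant 14 dpi library. It was 1 without wild-type untouched library 1 or any of the wild-type 7 dpi, mutant untouched or mutant 7 dpi libraries.

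Between successive days hsp90aa1.1, hsp90aa1.2, unc45b and ahsa1b all rose from the dip by 5 dpi in wild type. In mutants only hsp90aa1.2 and ahsa1b rose by 7 dpi in calls kept with the near-identical pairs averaged. From 2 to 5 dpi in wild type 4 genes rose and 2 fell, where 45.4% of all tested genes were called. The risers were hsp90aa1.1 at 2.84-fold (1.505 ± 0.20, adjusted p = 1.95e-05, limma), hsp90aa1.2 at 3.21-fold (1.74 ± 0.21, adjusted p = 9.67e-06), unc45b at 2.33-fold (1.21 ± 0.18, adjusted p = 6.89e-05) and ahsa1b at 2.71-fold (1.46 ± 0.17, adjusted p = 8e-06). In mutants 2 rose and 5 fell over the same days (62.6% of all genes), hsp90aa1.2 by 3.78-fold (-1.93 ± 0.21, adjusted p = 9.21e-07), ahsa1b by 4.00-fold (-1.99 ± 0.17, adjusted p = 8.32e-08) and hsp90aa1.1 by 2.69-fold (-1.43 ± 0.20, adjusted p = 1.06e-05). The gene smyd1b went the other way, with a fall in wild type (-1.55, adjusted p = 0.000192, limma) and a rise in mutants (1.57, adjusted p = 7.62e-05). Both calls were kept with averaged pairs (adjusted p = 0.00157 and 0.00355). From 5 to 7 dpi in mutants hsp90aa1.1 rose less (0.57, adjusted p = 0.0288, limma), a call lost with averaged pairs (adjusted p = 0.168). The rise of unc45b did not pass (0.21 ± 0.18, adjusted p = 0.38). In all, 4 genes rose over these days, a share near the 42.9% of all genes. Among them were hsp90aa1.2 at 2.17-fold (1.13 ± 0.21, adjusted p = 0.00054) and ahsa1b at 2.24-fold (1.16 ± 0.17, adjusted p = 8.9e-05). That count was 2 with averaged pairs (22.5% of all genes) and 2 without mutant 5 dpi library 1. From 7 to 14 dpi in mutants 2 rose and 1 fell (23.3%), 1 in all with averaged pairs (4.43%), and hsp90aa1.1 rose 2.79-fold (1.41 ± 0.20, adjusted p = 0.000167). In wild type 1 rose and 2 fell from 5 to 7 dpi (10.7%) and 1 rose and 1 fell from 7 to 14 dpi (17.8%). The first of these counts was 0 with averaged pairs (3.66%), 0 without either wild-type 5 dpi library or 7 dpi library 1, and 1 without either mutant 2 dpi library. The second was 1 with averaged pairs (8.92%) or without wild-type 7 dpi library 2, 0 without wild-type 14 dpi library 1, and 4 without either wild-type 2 dpi library.

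**Figure D4:**
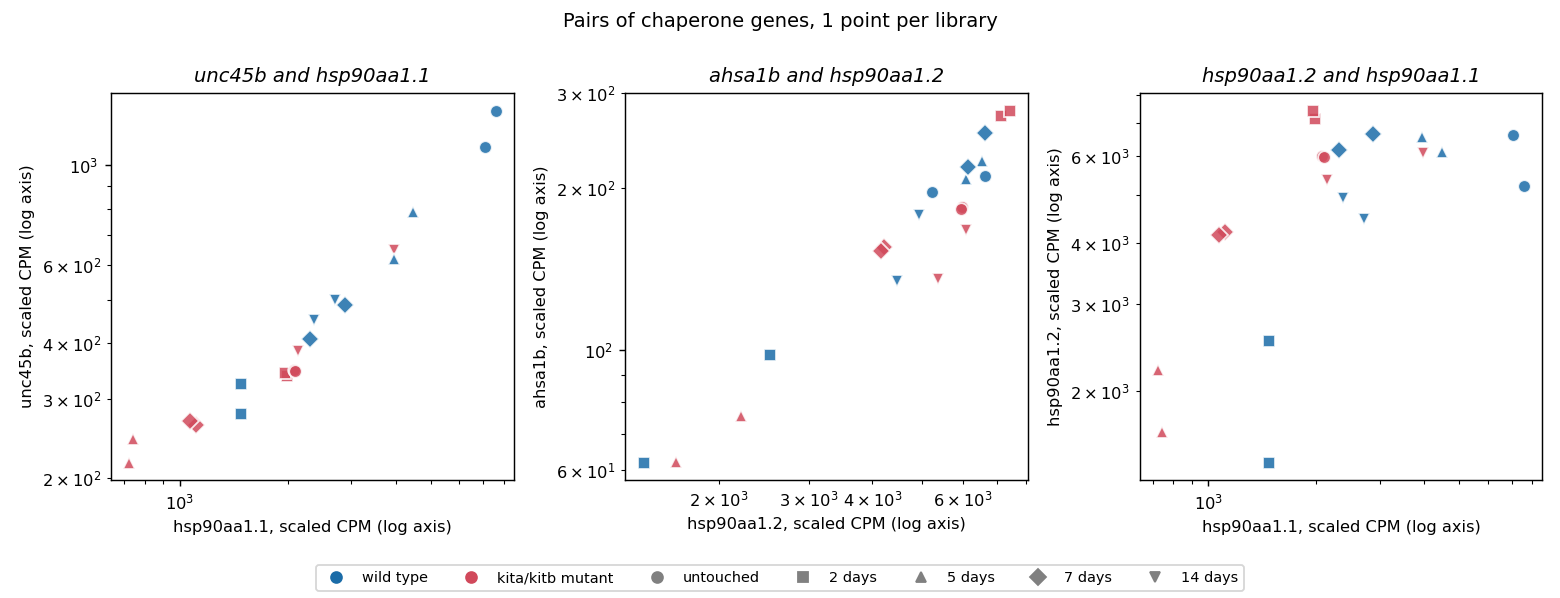
Scaled CPM of pairs of genes on log axes with 1 point per library, coloured by genotype and shaped by time, for unc45b against hsp90aa1.1, ahsa1b against hsp90aa1.2 and hsp90aa1.2 against hsp90aa1.1. The first 2 pairs follow a line over both genotypes (r = 0.972 and 0.969 over the 10 group means), and the third is more scattered (r = 0.671).

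In 2 pairs the group means moved closely together. Over the 10 group means of log2(scaled CPM + 1), Pearson's r was 0.972 for hsp90aa1.1 with unc45b (0.997 over the 5 wild-type and 0.962 over the 5 mutant means) and 0.969 for hsp90aa1.2 with ahsa1b (0.993 and 0.957). A high r leaves room for changes of unlike size. In mutants the log2 ratio of unc45b over hsp90aa1.1 was -2.58 and -2.59 in untouched libraries and -1.61 and -1.74 at 5 dpi. Between the Hsp90-alpha neighbours r was 0.671 (0.726 over the wild-type and 0.874 over the mutant means). The means share the libraries and their scaling, so these values describe the series only. Within groups, ahsa1b was higher in the same library of the pair as hsp90aa1.2 in 10 of 10 groups, while hsp90aa1.1 and unc45b shared the higher library in 6 of 10. hsp90ab1 correlated with none of the 4 positively (r from -0.395 to -0.161).

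Among genes with a mean of 5 scaled CPM or more, those most like hsp90aa1.1 over the 10 group means were hspb8, a small heat shock protein (r = 0.980), unc45b, and cdkn1a, a cell cycle inhibitor (r = 0.962). Those most like unc45b were phlda2 (r = 0.976), hspb8 (r = 0.975) and hsp90aa1.1. For hsp90aa1.2 they were stip1, the co-chaperone that links Hsp70 and Hsp90 (r = 0.984), the kinase gene jak2b (r = 0.971) and ahsa1b. For ahsa1b they were the zinc transporter gene slc30a1a (r = 0.980), hsp90aa1.2 and stip1 (r = 0.966). hsp90ab1 was most like the RNA helicase gene ddx21 (r = 0.941) and the translation initiation factor genes eif3c (r = 0.907) and eif3d (r = 0.893). The closest gene was adprh for smyd1b (r = 0.942) and ap1s1 for unc45a (r = 0.922).

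Other Hsp90 co-chaperones went in both directions at 2 dpi. Of 17 tested, 5 rose and 3 fell in wild type with a median of 0.00 (51.6% of all genes were called), and 3 rose and 2 fell in mutants with a median of -0.09 (52.4%; 3 and 0 with averaged pairs). From 2 to 5 dpi 2 rose and 9 fell in wild type (median -0.35; 45.4% of all genes), and 2 rose and 8 fell in mutants (median -0.25; 62.6%; 2 and 6 with averaged pairs). The immunophilin fkbp4 took the course of hsp90aa1.1 in wild type, at 234 ± 7.39 scaled CPM in untouched hearts and 93.7 ± 0.983 at 2 dpi (SD, n = 2), and was at 86.0 ± 2.50 in untouched mutants. The Hsp90-binding ttc4 rose at 2 dpi in wild type (1.59) and in mutants (1.06) on the log2 scale. At 5 dpi in mutants ptges3b (p23) and nudc fell by 0.96 and 0.73 on the log2 scale. Of the organelle Hsp90 genes, mitochondrial trap1 fell at 2 dpi in wild type (-0.55) and in mutants (-1.50), and hsp90b1 of the endoplasmic reticulum rose in wild type (1.13) and in mutants (0.60, lost with averaged pairs, adjusted p = 0.095).

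In the heat shock response list, 3 of 22 tested genes rose and 13 fell at 2 dpi in wild type, with a median of -0.65 beside 0.00 for all genes, of which 51.6% were called. At 2 dpi in mutants 3 rose and 7 fell (2 and 4 with averaged pairs), a share below the 52.4% of all genes. At 5 dpi in mutants 2 rose and 12 fell with a median of -0.49 (51.3% of all genes). The co-chaperone bag3, which acts with small heat shock proteins in muscle, went from 9441 ± 556 scaled CPM in untouched wild type to 2244 ± 166 at 2 dpi (SD, n = 2; log2 difference -2.07). In mutants it was at 3768 ± 39.1 in untouched hearts and 1939 ± 256 at 5 dpi (-0.96). serpinh1a, the collagen chaperone, rose at 2 dpi in wild type (1.23) and in mutants (2.21). In mutants the muscle small heat shock protein hspb7 (-1.33) and the mitochondrial chaperonin partner hspe1 (-1.62) fell at 2 dpi.

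Among genes of myosin, the client of these chaperones, and its partners, 8 of 16 tested sarcomeric genes fell and 0 rose at 2 dpi in wild type (median -0.55), and 6 fell and 1 rose in mutants (median -0.31; 5 and 0 with averaged pairs). These shares are no higher than the 51.6% and 52.4% of all genes called. The list also holds skeletal myosin genes at very low levels, where adding 1 shrinks differences. Among them were mylpfa, myhz1.1 and myhz2, with medians of 0.120, 0.394 and 0.719 scaled CPM. Of the 11 cardiomyocyte markers, some of them in this list, 9 were lower and 1 higher at 2 dpi in wild type. In mutants 8 of these markers were lower and 1 higher. The light chain gene myl7 (-1.06 and -1.57), the ventricular heavy chain vmhcl (-1.03 and -1.37) and the myosin-binding protein mybpc3 (-0.64 and -1.47) were lower at 2 dpi in wild type and mutants, as was the light chain cmlc1 in mutants (-1.59). At 5 dpi in mutants, when the Hsp90-alpha genes were lowest, 1 rose and 3 fell (0 and 1 with averaged pairs; 51.3% of all genes), among them vmhcl (-1.09). Of the other myosins, the nonmuscle heavy chain myh9a was at 48.4 ± 8.31 in untouched wild type and 196 ± 9.50 in untouched mutants (SD, n = 2; 2.01), and fell to 25.0 ± 8.82 at 5 dpi in mutants (-2.97). The smooth muscle heavy chain myh11a fell at 5 dpi in wild type (-0.92) and in mutants (-1.19).

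The CCT chaperonin, which folds actin and tubulin, went opposite ways in the genotypes at 2 dpi. Of 7 tested subunits 6 rose and 0 fell in wild type (median 0.36) and 0 rose and 6 fell in mutants (median -0.61; 4 fell with averaged pairs), where 51.6% and 52.4% of all genes were called. At 14 dpi 2 rose in wild type, a share near the 24.9% of all genes, and 7 fell in mutants (median -0.64; 6 with averaged pairs; 39.4% of all genes). The difference of the responses was negative for tcp1 (-1.16 ± 0.13, adjusted p = 9.92e-06, limma), cct4 (-1.11 ± 0.15, adjusted p = 4.28e-05), cct5 (-1.07 ± 0.15, adjusted p = 6.14e-05) and cct7 (-1.03 ± 0.14, adjusted p = 4.28e-05) at 2 dpi. That is the reverse of the sign for hsp90aa1.1, hsp90aa1.2, unc45b and ahsa1b on the same day.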

How the data were processed

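mRNA libraries of zebrafish cardiomyocyte preparations, 20 in 10 groups, were analysed. Per the submitters' processing notes, FastQC, featureCounts and danRer10 were used by the authors. The sources used here name no aligner, annotation or use of strand. The deposited CPM matrix held 14781 genes, each column summing to 1000000, and 3 lines without values were left out. All CPM were whole multiples of 1 read (100% whole within 0.1 read), which gave 14.6 to 31.7 M reads per library.

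Library factors by the median-ratio method (11000 genes, range 0.881 to 1.18) gave scaled CPM. The filter kept genes reaching a CPM of 1 in 2 libraries, 10914 of the 13956 with any value above 0. The trend method of limma (version 3.58.1 under R 4.3.3) on log2(scaled CPM + 1) used 10 group means, 10 residual degrees of freedom (16.2 with the prior), 23 contrasts, two-sided tests and Benjamini-Hochberg adjustment over genes per contrast. Calls have an adjusted p under 0.05. A permutation test of 2 groups could not pass that threshold at 2 libraries each. The fit was tested on simulated data.

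The members and gene lists were chosen with earlier results of these data known. Genes named beside the members are up to 4 per list by smallest adjusted p in a time contrast, and the 3 with the highest r for each member. Genes most like ahsa1a are left out because its values fall into 2 clusters by genotype. Alternatives were CPM as deposited, quantile normalization, other filters, a pseudocount of 0.25, edgeR 4.0.16 (quasi-likelihood, TMM) on recovered reads, a replicate block, averaging of near-identical pairs, separate fits per genotype and leave-one-out over libraries. The summed hsp90aa1 genes were added after seeing the data. Same replicate numbers did not pair libraries: the correlation of deviations from group means was -0.293 to 0.143 over 45 pairs of groups, above 0.1 in 3. For the samples of 14 dpi 1 label field gives another day, and the day of the titles was used. The gene table was GRCz12tu, another build than the files', so no coordinates are given, and no sequences were used here.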

Additional observations from a re-analysis of the deposited data

Results flagged for a closer look

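The responses of the genotypes to resection differed by the test of the difference itself (mutant change from untouched less wild-type change, log2, limma) in 18 values. Of the 8 genes 7, 4, 2 and 5 were called at 2, 5, 7 and 14 dpi. Among all tested genes the shares called were 40.9%, 34.9%, 18.8% and 33.2%, so a call alone does not set a gene apart. For unc45b the values were 1.97 at 2 dpi, 1.04 at 7 dpi and 1.86 at 14 dpi. For hsp90aa1.1 they were 2.23 at 2 dpi and 2.01 at 14 dpi. At 2 and 14 dpi the values of both genes mostly hold the untouched genotype difference with its sign reversed (-1.79 for unc45b and -1.81 for hsp90aa1.1). On those days mutants against wild type did not pass the threshold for either gene in the fit used for the calls. For hsp90aa1.2 and ahsa1b the sign changed with the day, with 1.92 and 1.96 at 2 dpi and -1.75 and -1.50 at 5 dpi. For hsp90ab1 they were -0.62 at 2 dpi and -1.29 at 14 dpi. For smyd1b they were -1.56 at 2 dpi, 1.57 at 5 dpi and -1.30 at 14 dpi. For unc45a the value was 0.61 at 14 dpi. For ahsa1a they were 1.61 at 2 dpi, 1.86 at 5 dpi and 1.76 at 7 dpi, with mutant levels near 0 throughout. With the near-identical mutant pairs averaged 8 of the 18 did not pass (adjusted p from 0.0525 to 0.213): unc45b at 7 dpi, unc45a at 14 dpi, smyd1b at 2 and 14 dpi, hsp90ab1 at 2 dpi and ahsa1a at 2, 5 and 7 dpi. The ahsa1a values also missed the threshold with edgeR (adjusted p = 0.0824, 0.239 and 0.481). Of these 8, only smyd1b and hsp90ab1 at 2 dpi kept their calls without each single library in turn. No group had enough libraries for a check of single outlying libraries.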

How the results depend on the processing

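Of 96 member values past the threshold, 56 stayed past it with the same sign under every alternative that gave a value, 34 were lost without at least 1 library and 33 with the near-identical mutant pairs averaged. That averaging gave 4 member calls in the mutant time course (11 with all libraries), 10 in the difference of responses (18) and 15 between successive times (25). Without single libraries the mutant time course had 7 to 13 calls. With the replicate block 94 of the 96 were kept, and the calls were 18, 11, 24, 18 and 24 over wild-type time course, mutant time course, mutant against wild type, difference of responses and successive times. It lost unc45a at 5 dpi and hsp90ab1 from 2 to 5 dpi, both in mutants, and added smyd1b at 5 dpi in mutants. edgeR on recovered reads kept 92. CPM as deposited kept 91, and shifted the median of all genes by -0.32 to 0.32. Signs turned with CPM as deposited and quantile normalization for unc45b at 2 dpi in mutants (0.32 and 0.21), hsp90aa1.1 at 2 dpi in mutants (0.28 and 0.48) and hsp90ab1 from 2 to 5 dpi in mutants (-0.044 and -0.23), and with quantile normalization for hsp90ab1 at 2 dpi in mutants (0.023). CPM as deposited are not divided by the library factors. These were 1.145 and 1.150 in the mutant 2 dpi libraries, 0.900 and 0.895 in the untouched mutant ones and 0.887 and 0.915 in the mutant 5 dpi ones. Why signs turned with quantile normalization was not tested. Without single libraries the sign turned for mutant against wild type at 14 dpi of unc45b (-0.30 to 0.45) and hsp90aa1.1 (-0.24 to 0.64), and for smyd1b at 7 dpi in wild type (-0.31 to 0.70). Each genotype alone gives no value for comparisons between genotypes. At 1 to 15 reads per mutant library, depth limits the size given for ahsa1a, and at 2 to 24 reads smyd1a was not tested.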
